A study of Mus musculus with 6 samples.

Results

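The genes described here are 10 members of the nuclear factor κB (NF-κB) system: the subunit genes Nfkb1, Nfkb2, Rela and Relb, the inhibitor and feedback genes Nfkbia, Nfkbiz, Tnfaip3 and Birc3, and the target genes Icam1 and Lif. They were taken by symbol from a table of 36172 genes, and all 10 were found. The list was chosen with earlier results of these data known. Their mRNA levels were compared over 3 Trp53 genotypes of mouse intestinal tumor organoids. The clearest separation was that of Icam1, which encodes an adhesion molecule for leukocytes: it stood between 5.62 and 5.73 rpkm in organoids without p53 and between 1.24 and 1.67 rpkm in the organoids of the other genotypes. Only in organoids without p53 did it reach the 4 rpkm needed for a test, so a difference was built into its being tested. Its difference from organoids with wild-type p53 did not pass the threshold under every alternative setting.

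Tumor-derived organoids are epithelial cultures that grow in a gel as closed or branched structures. They came from intestinal tumors of C57BL/6 mice aged 15 to 20 weeks, and all carried the ApcΔ716 truncation. The authors report that tumor cells of such mice have lost wild-type Apc, which was not tested in these libraries. In Trp53 +/+ organoids p53 was wild-type. In Trp53 flox/flox organoids both alleles held the unrecombined stop cassette, which makes them null, and in Trp53 R270H/R270H organoids (p53(M/M) in the labels) both alleles had been recombined to express the missense protein R270H. Recombination was driven by villin-CreER, a tamoxifen-activated Cre of intestinal epithelium. The R270H/R270H genotype thus also differed from flox/flox by tamoxifen treatment of the mice. The authors describe this treatment only for mice with alleles to be recombined, so it may also separate R270H/R270H from +/+. Each genotype had 2 libraries, from organoids prepared independently from 2 mice, which gave 6 libraries in all. Values are rpkm, the reads of a gene scaled to its length in kilobases and to the mapped reads of its library, which can be set side by side between genes because they are per length. No deposited value was below 1 rpkm, so lower levels appear to have been raised to this floor, and what lay under it is unknown.

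NF-κB is a family of dimeric transcription factors that inhibitors of the IκB group hold in the cytoplasm. Signals from TNF, interleukin-1 or Toll-like receptors activate the IκB kinase (IKK) complex, IκBα is destroyed, and dimers such as p50-RelA enter the nucleus, whereas a slower branch processes p100, the product of Nfkb2, and releases p52-RelB. The factor induces its own brakes, among them IκBα and A20, so mRNAs of such feedback genes are widely used as a readout of the pathway. In intestinal epithelium NF-κB links microbial and cytokine signals to survival and to the recruitment of leukocytes.

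NF-κB dimers bind κB sites in DNA, and several members are known targets of the factor. The promoter windows of RefSeq (build GRCm38.p6), from 250 bases before to 50 bases after a transcript start, held 7 of the 10 genes, Nfkb2, Rela, Nfkbia, Tnfaip3, Birc3, Icam1 and Lif. They were searched on both strands for the general κB consensus, which is degenerate at 5 of its 10 positions. The 250 bases before the first listed start are printed below for the 4 genes whose window held a match and for Icam1, the member with the largest difference between genotypes among those not at the floor. Each reads 5′ to 3′ on the strand of the gene, and capitals mark matches to the κB consensus. The regions are chr19:46304487-46304736 on the plus strand for Nfkb2, chr12:55492648-55492897 on the minus strand for Nfkbia, chr10:19015411-19015660 on the minus strand for Tnfaip3, chr11:4257318-4257567 on the plus strand for Lif and chr9:21015690-21015939 on the plus strand for Icam1.
Nfkb2: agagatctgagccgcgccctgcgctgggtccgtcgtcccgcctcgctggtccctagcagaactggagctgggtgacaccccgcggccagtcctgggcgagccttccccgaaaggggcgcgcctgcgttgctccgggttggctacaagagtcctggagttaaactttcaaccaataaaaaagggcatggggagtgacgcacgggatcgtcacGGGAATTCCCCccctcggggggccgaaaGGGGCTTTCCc
Nfkbia: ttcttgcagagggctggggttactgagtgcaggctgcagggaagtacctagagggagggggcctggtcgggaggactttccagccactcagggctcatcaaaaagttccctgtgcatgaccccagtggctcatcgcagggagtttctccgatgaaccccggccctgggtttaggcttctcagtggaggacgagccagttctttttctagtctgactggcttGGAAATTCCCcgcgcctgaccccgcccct
Tnfaip3: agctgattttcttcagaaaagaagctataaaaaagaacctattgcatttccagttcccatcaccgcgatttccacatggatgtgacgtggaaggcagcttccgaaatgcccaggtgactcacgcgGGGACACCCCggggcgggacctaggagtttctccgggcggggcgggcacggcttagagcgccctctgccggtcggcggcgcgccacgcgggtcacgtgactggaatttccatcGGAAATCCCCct
Lif: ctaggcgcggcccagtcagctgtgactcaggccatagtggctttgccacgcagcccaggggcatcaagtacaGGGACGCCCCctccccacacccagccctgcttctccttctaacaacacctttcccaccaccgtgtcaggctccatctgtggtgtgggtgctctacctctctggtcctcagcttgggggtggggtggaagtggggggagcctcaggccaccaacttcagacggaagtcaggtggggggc
Icam1: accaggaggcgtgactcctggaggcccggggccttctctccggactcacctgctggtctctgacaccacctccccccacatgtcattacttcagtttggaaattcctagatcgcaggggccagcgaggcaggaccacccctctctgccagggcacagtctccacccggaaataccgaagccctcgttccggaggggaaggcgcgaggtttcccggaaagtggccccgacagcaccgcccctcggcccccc

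A match began 29 bases before the start in Nfkbia and 178 bases before it in Lif. Tnfaip3 held matches 125 and 12 bases before its first start and none at its second. Nfkb2 held 3 matches at its first start, of which the pair beginning 39 and 38 bases before it overlap and are printed as 1 run of capitals, and the other began 11 bases before the start. Its other windows, at starts farther along the gene, held 2 and 1, and these windows overlap and share 1 match. The windows of Rela, Birc3 and Icam1 held none, which says only that these letters do not occur there. Of all 32851 windows, 8.46% held a match, as did 9.55% of the 27025 genes. A match is a description of sequence and not evidence that NF-κB binds.

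**Figure D1:**
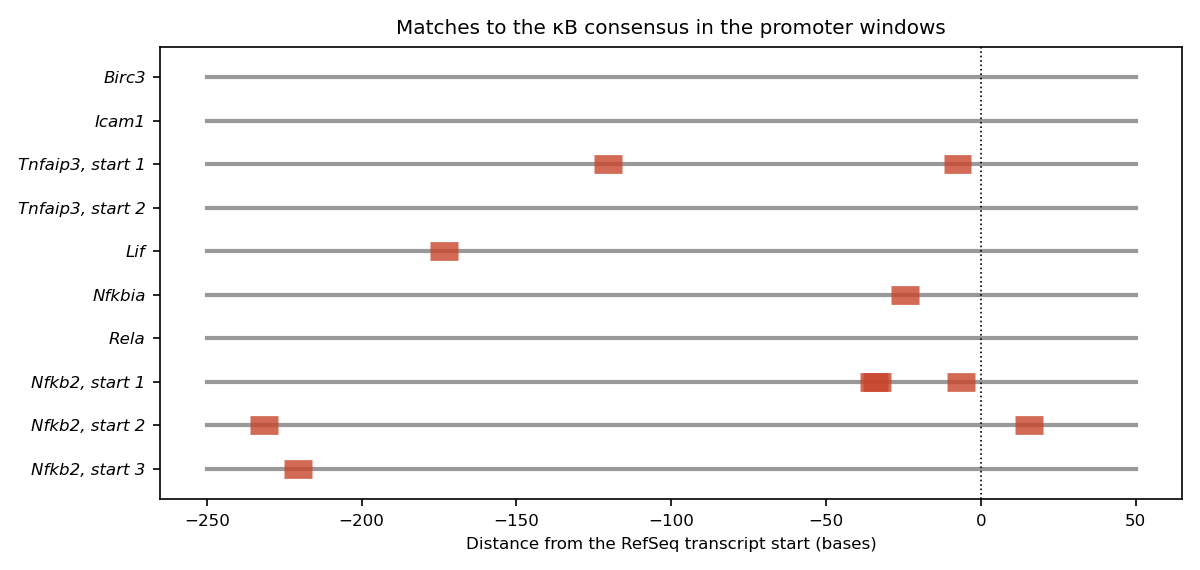
Matches to the κB consensus in the RefSeq promoter windows of 7 genes, with the distance from the transcript start in bases on the x axis and 1 line per window. Red boxes are matches on either strand: Nfkbia, Lif, Tnfaip3 and Nfkb2 hold at least 1, and Birc3, Icam1 and Rela hold none.

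Trp53 mRNA stood at 75.9 and 74.3 rpkm in the +/+ libraries, 1.73 and 2.48 rpkm in flox/flox and 72.8 and 82.7 rpkm in R270H/R270H, low only in the libraries labelled null. The flox/flox libraries differed more from each other than the others did, with a median SD over all genes tested of 0.247 on the log2 scale against 0.0463 in +/+ and 0.0621 in R270H/R270H. The epithelial markers were all above the floor in every library and summed to 3054 to 3124, 4525 to 4805 and 2520 to 2719 rpkm in +/+, flox/flox and R270H/R270H. Of 10 leukocyte markers, 8 were at the floor in all 6 libraries, Ptprc, Csf1r and Cd3e among them, and the list summed to 32.3 to 34.9, 22.4 to 34.1 and 13.0 to 13.9 rpkm. Of 10 fibroblast and smooth muscle markers, 4 were at the floor throughout, and the sum was 59.0 to 78.0, 41.4 to 80.6 and 294 to 316 rpkm. Most of it was Vim except in flox/flox replicate 2, where Vim was 19.8 of 41.4 rpkm and Acta2 11.5 rpkm. Acta2, Col1a1, Dcn, Pdgfra and Pdgfrb were above the floor in that library and at it in flox/flox replicate 1, whereas Vim was higher in replicate 1. Of 6 endothelial markers, 3 were at the floor throughout and the sums were 22.6 to 24.0, 6 to 28.7 and 6.13 to 6.20 rpkm. A gene at the floor adds 1 rpkm to a sum, so all 6 were at it in flox/flox replicate 1. In flox/flox replicate 2, Tek stood at 21.4 rpkm. Cdh5 (adjusted p = 0.0224 in limma) and Vwf (0.00459) were called lower in R270H/R270H than in +/+, and also lower in flox/flox than in +/+. Tek was not called in any comparison. In bulk RNA, fewer cells of a type and less RNA per cell cannot be told apart. Whether these markers have a part in the differences below was not tested.

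Tests were run on the 10042 genes that reached 4 rpkm in any library, and all 10 members did. Icam1 passed only through the flox/flox libraries and Lif only through 1 of the +/+ libraries. Nfkbiz passed through R270H/R270H and 1 of the flox/flox libraries, and Tnfaip3 through the +/+ and flox/flox libraries only. For these genes a difference between genotypes was built into passing. Differences are log2 fold changes of rpkm + 1 with their standard errors (SE) from limma, fitted to all 10042 genes and all 6 libraries, and a gene was called where its Benjamini-Hochberg adjusted p over all genes was under 0.05. With 2 libraries against 2, an exact permutation test of 1 gene could not go below a two-sided p of 0.333.

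**Figure D2:**
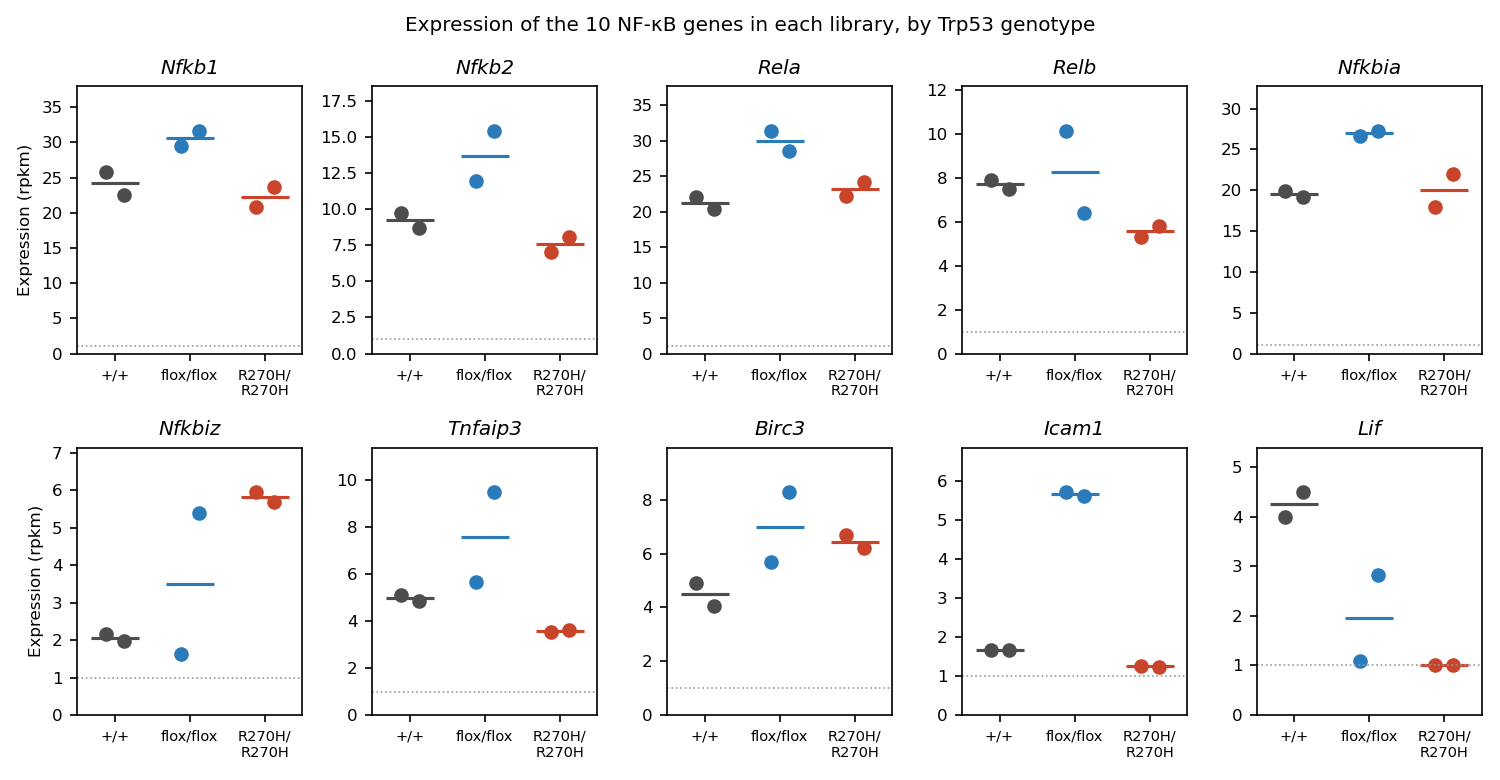
Expression of each of the 10 genes (y axis, rpkm, linear from 0) in the 6 libraries, by Trp53 genotype (x axis), where points are libraries, bars are means of 2 and the dotted line is the floor of 1 rpkm. Icam1 is high in both flox/flox libraries, Lif is highest in both +/+ libraries, and the flox/flox points lie far apart for Nfkbiz, Tnfaip3, Relb and Birc3.

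The subunit genes were expressed in every library. Nfkb1 and Rela, which encode p105/p50 and the transactivating subunit p65, were the most abundant, at 20.4 to 31.7 rpkm, and Nfkb2 and Relb, the genes of the p100 branch, lay at 5.32 to 15.4 rpkm. Of these 4 genes only Nfkb2 was called, and only in R270H/R270H against flox/flox.

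Nfkb1 (Entrez 18033, chr3:135584655-135691547 in GRCm38, minus strand) stood at 25.8 and 22.6 rpkm in +/+, 29.4 and 31.7 rpkm in flox/flox and 20.8 and 23.7 rpkm in R270H/R270H. The flox/flox libraries were the highest, and those of the remaining genotypes overlapped. The differences were 0.33 (SE 0.12, adjusted p = 0.131) for flox/flox against +/+, -0.12 (SE 0.12, adjusted p = 0.568) for R270H/R270H against +/+ and -0.44 (SE 0.12, adjusted p = 0.0543) for R270H/R270H against flox/flox, none of them called. Rela (Entrez 19697, chr19:5637483-5648130, plus strand) stood at 22.0 and 20.4 rpkm in +/+, 31.4 and 28.5 rpkm in flox/flox and 22.3 and 24.2 rpkm in R270H/R270H. Again the flox/flox libraries were the highest, and those of R270H/R270H lay just above those of +/+. The difference of flox/flox from +/+ was 0.48 (SE 0.11, adjusted p = 0.0520), just short of the threshold, and it passed with median-of-ratios scaling (adjusted p = 0.0499) and with a filter of over 1 rpkm (adjusted p = 0.0491). R270H/R270H differed from +/+ by 0.12 (SE 0.11, adjusted p = 0.487) and from flox/flox by -0.36 (SE 0.11, adjusted p = 0.0685).

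Nfkb2 (Entrez 18034, chr19:46304320-46312385, plus strand) encodes p100, which acts as an IκB until it is cut to p52. It stood at 9.74 and 8.70 rpkm in +/+, 11.96 and 15.4 rpkm in flox/flox and 7.03 and 8.07 rpkm in R270H/R270H. The genotypes did not overlap, with flox/flox highest and R270H/R270H lowest. R270H/R270H was lower than flox/flox by -0.77 (SE 0.16, adjusted p = 0.0279), a ratio of 1.81 between the means of 13.7 ± 2.45 and 7.55 ± 0.733 rpkm (SD, n = 2), and it was called. It was no longer called when either +/+ or either R270H/R270H library was left out (adjusted p 0.0961 to 0.211), or when these mutant genotypes were fitted alone (0.0962). Flox/flox differed from +/+ by 0.52 (SE 0.16, adjusted p = 0.0938) and R270H/R270H from +/+ by -0.26 (SE 0.16, adjusted p = 0.327). Exons of Nfkb2 touch those of Psd and of the noncoding AC114539.1 on the opposite strand, and whether the reads were counted by strand is not given in the sources used here.

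Relb (Entrez 19698, chr7:19606217-19629438, minus strand) encodes the partner of p52. It stood at 7.91 and 7.48 rpkm in +/+, 10.1 and 6.38 rpkm in flox/flox and 5.32 and 5.78 rpkm in R270H/R270H. The R270H/R270H libraries were the lowest and the flox/flox libraries lay on either side of the +/+ pair. The differences of -0.41 (SE 0.21, adjusted p = 0.256) from +/+ and -0.47 (SE 0.21, adjusted p = 0.156) from flox/flox were not called, and flox/flox differed from +/+ by 0.06 (SE 0.21, adjusted p = 0.858).

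The inhibitor and feedback genes did not share 1 pattern. Nfkbia and Tnfaip3, the genes of the classical brakes IκBα and A20, had their highest values in flox/flox. Nfkbiz had its highest values in R270H/R270H but was not called, and Birc3 had its lowest values in +/+, also without a call.

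Nfkbia (Entrez 18035, chr12:55489410-55492647, minus strand) encodes IκBα, the inhibitor that is destroyed on stimulation and made again under NF-κB control, and its printed promoter holds a match 29 bases before the start. It stood at 19.9 and 19.2 rpkm in +/+, 26.6 and 27.3 rpkm in flox/flox and 17.9 and 22.0 rpkm in R270H/R270H. The flox/flox libraries were the highest and lay close together, and the remaining genotypes overlapped. The difference of flox/flox from +/+ was 0.45 (SE 0.13, adjusted p = 0.0789) and that of R270H/R270H from flox/flox was -0.42 (SE 0.13, adjusted p = 0.0643). R270H/R270H and +/+ differed by 0.03 (SE 0.13, adjusted p = 0.914), with a 95% interval from -0.29 to 0.35.

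Tnfaip3 (Entrez 21929, chr10:19000910-19015657, minus strand) encodes A20, a ubiquitin-editing enzyme that ends signaling from TNF receptors. It stood at 5.12 and 4.84 rpkm in +/+, 5.67 and 9.48 rpkm in flox/flox and 3.54 and 3.63 rpkm in R270H/R270H. The genotypes did not overlap, with flox/flox highest and R270H/R270H lowest, but the flox/flox libraries were far apart. R270H/R270H was lower than flox/flox by -0.87 (SE 0.23, adjusted p = 0.0497), a ratio of 2.11 between means of 7.57 ± 2.70 and 3.59 ± 0.0682 rpkm (SD, n = 2). This call lay at the threshold and was absent when either +/+ or either R270H/R270H library was left out (adjusted p 0.131 to 0.255), when the mutant genotypes were fitted alone (0.131) and with upper-quartile scaling (0.0608). Against +/+, flox/flox differed by 0.48 (SE 0.23, adjusted p = 0.199) and R270H/R270H by -0.38 (SE 0.23, adjusted p = 0.318).

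Nfkbiz (Entrez 80859, chr16:55811375-55838899, minus strand) encodes IκBζ, a nuclear IκB protein that acts as a coactivator at a subset of NF-κB targets. It stood at 2.15 and 1.97 rpkm in +/+, 1.62 and 5.39 rpkm in flox/flox and 5.95 and 5.67 rpkm in R270H/R270H. Both R270H/R270H libraries exceeded all others, while the flox/flox libraries lay at the levels of +/+ and close to R270H/R270H respectively. R270H/R270H exceeded +/+ by 1.15 (SE 0.42, adjusted p = 0.133), which was 2.81-fold between means of 5.81 ± 0.192 and 2.06 ± 0.127 rpkm (SD, n = 2). The spread that all genotypes share in the fit, for this gene mostly that of flox/flox, sets this error: with the R270H/R270H and +/+ libraries alone the adjusted p was 0.000485. R270H/R270H differed from flox/flox by 0.73 (SE 0.42, adjusted p = 0.231) and flox/flox from +/+ by 0.42 (SE 0.42, adjusted p = 0.498), and the latter difference turned to -0.23 without flox/flox replicate 2.

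Birc3 (Entrez 11796, chr9:7848699-7873186, minus strand) encodes cIAP2, a ubiquitin ligase of the TNF receptor complex that supports survival. It stood at 4.91 and 4.05 rpkm in +/+, 5.68 and 8.29 rpkm in flox/flox and 6.68 and 6.21 rpkm in R270H/R270H. The +/+ libraries were the lowest, and the mutant genotypes overlapped. It differed from +/+ by 0.53 (SE 0.20, adjusted p = 0.130) in flox/flox and by 0.45 (SE 0.20, adjusted p = 0.194) in R270H/R270H, and the latter differed from the former by -0.08 (SE 0.20, adjusted p = 0.769). Birc3 has a neighboring paralog, Birc2, and the division of shared reads between them is not known.

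Each target gene passed the filter only through the genotype in which it was highest. Icam1 was higher in flox/flox than in either other genotype, and Lif was lower in R270H/R270H than in +/+. Both genes were at low levels, under 6 rpkm in every library.

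Icam1 (Entrez 15894, chr9:21015985-21028817, plus strand) encodes the ligand by which leukocyte integrins attach to epithelium and endothelium. It stood at 1.66 and 1.67 rpkm in +/+, 5.73 and 5.62 rpkm in flox/flox and 1.27 and 1.24 rpkm in R270H/R270H. The flox/flox libraries were far above the others and close together, and the R270H/R270H libraries lay below those of +/+. Flox/flox exceeded +/+ by 1.32 (SE 0.13, adjusted p = 0.0118), or 3.41-fold between means of 5.67 ± 0.0751 and 1.66 ± 0.00575 rpkm (SD, n = 2), and R270H/R270H was lower than flox/flox by -1.57 (SE 0.13, adjusted p = 0.00398), a ratio of 4.52. The second difference was called in all 18 alternative settings (highest adjusted p 0.0401), whereas the first was lost when either +/+ library (adjusted p 0.141 and 0.159) or either R270H/R270H library (0.0581 and 0.0583) was left out and when flox/flox and +/+ were fitted alone (0.0519). R270H/R270H differed from +/+ by -0.24 (SE 0.13, adjusted p = 0.277). An antisense gene, Gm47079, touches exons of Icam1, and reads of the pair cannot be told apart if strand was not used in counting. Of the 10 leukocyte markers, 8 were at the floor in all 6 libraries, Ptprc and Itgb2 among them. Cd14 and Cd68 were above it in every library. Cd68 stood at 10.2 and 9.87 rpkm in +/+, 2.06 and 11.1 rpkm in flox/flox and 2.22 and 2.41 rpkm in R270H/R270H. Whether other cell types contributed to the Icam1 values was not tested.

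Lif (Entrez 16878, chr11:4257557-4272514, plus strand) encodes leukemia inhibitory factor, a secreted cytokine of the interleukin-6 family. It stood at 3.998 and 4.50 rpkm in +/+, 1.09 and 2.82 rpkm in flox/flox and at the floor of 1 rpkm in both R270H/R270H libraries. The genotypes did not overlap, with +/+ highest. R270H/R270H was lower than +/+ by -1.39 (SE 0.30, adjusted p = 0.0469), and as its libraries were at the floor the mean level was at least 4.25-fold lower than the 4.25 ± 0.353 rpkm (SD, n = 2) of +/+. The call was lost when either +/+ or either R270H/R270H library was left out (adjusted p 0.227 to 0.299) and without a pseudocount (0.0537) or a filter (0.208). Flox/flox differed from +/+ by -0.89 (SE 0.30, adjusted p = 0.112) and R270H/R270H from flox/flox by -0.50 (SE 0.30, adjusted p = 0.259).

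**Figure D3:**
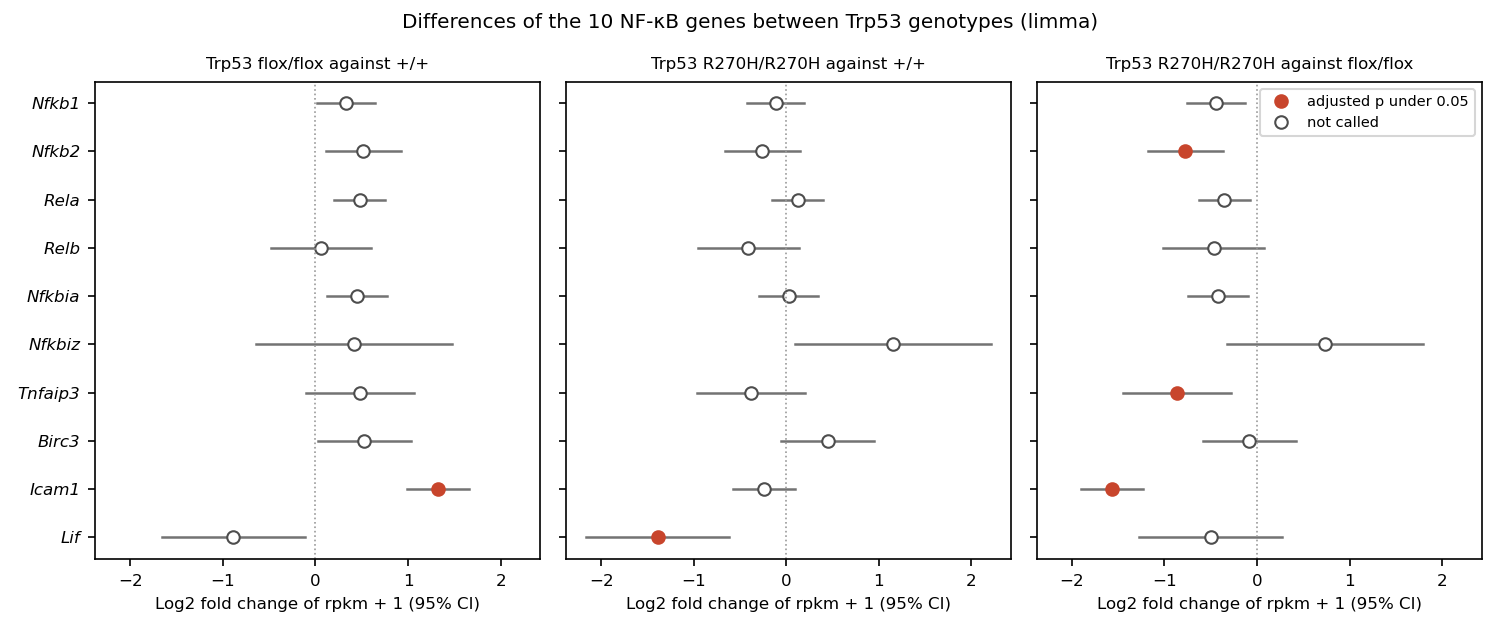
Log2 fold changes of rpkm + 1 (x axis) with 95% intervals from limma for the 10 genes (y axis) in the 3 comparisons. Filled points passed an adjusted p of 0.05: Icam1 in flox/flox against +/+, Lif in R270H/R270H against +/+, and Nfkb2, Tnfaip3 and Icam1 in R270H/R270H against flox/flox.

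The first comparison asks what loss of p53 changed. In Trp53 flox/flox against +/+, 1 of the 10 genes was called higher, Icam1, and none lower, where 4.38% of all genes tested were called higher and 6.9% lower. The fitted difference was above 0 for 9 genes and below 0 for Lif, and the median was 0.46 against -0.02 over all genes tested. Both flox/flox libraries exceeded both +/+ libraries for 7 genes, Nfkb1, Nfkb2, Rela, Nfkbia, Tnfaip3, Birc3 and Icam1, and lay under both for 1, Lif, where 30.6% and 33.9% of all genes did so. At an unadjusted p under 0.05 there were 7 of the 10 members and 3489 of all 10042 genes. Without flox/flox replicate 1 the calls were 7 higher and 1 lower, and without replicate 2 they were 5 and 1, fits in which the remaining flox/flox library is assumed to vary like those of the other genotypes, and none was called when a +/+ or R270H/R270H library was left out. Those member counts rose with the calls over all genes, which were 4056 and 6875 without flox/flox replicate 1 and 2, against 1133 with all libraries.

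The second comparison asks what expression of p53 R270H changed against wild-type p53. Of the 10 genes, none was called higher and 1 lower, Lif, where 5.86% of all genes tested were called higher and 6.36% lower. Differences were above 0 for 4 genes and below 0 for 6, with a median of -0.18 against 0.03 over all genes. Both R270H/R270H libraries exceeded both +/+ libraries for Rela, Nfkbiz and Birc3 and lay under both for Nfkb2, Relb, Tnfaip3, Icam1 and Lif, as 44.2% and 37.6% of all genes did. Nfkbiz and Lif had an unadjusted p under 0.05, as did 3209 of all 10042 genes. A fit of these genotypes only, which leaves out the wider spread of flox/flox, called 2 members higher, Nfkbiz and Birc3 (adjusted p = 0.0179), and 4 lower, Relb (0.00914), Tnfaip3 (0.00779), Icam1 (0.0162) and Lif, but it also called 5721 genes in all in place of 1227. Cd14, a leukocyte marker, was at 16.7 and 14.4 rpkm in +/+, 12.3 and 15.0 rpkm in flox/flox and 2.81 and 3.46 rpkm in R270H/R270H. Vim, a mesenchymal marker that tumor cells can also express, was at 69.0 and 49.95, 71.6 and 19.8, and 306 and 284 rpkm. Both were named after their values were seen, and most of their lists did not vary with them. Of the leukocyte markers, 8 were at the floor in all 6 libraries. Col1a1, Col1a2, Col3a1, Dcn, Lum, Pdgfra, Pdgfrb and Des were at the floor in both R270H/R270H libraries. Acta2 was at 1 and 1 rpkm in +/+, 1 and 11.5 rpkm in flox/flox and 1.53 and 1.59 rpkm in R270H/R270H, and was not called.

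The last comparison sets the missense protein against the null allele. In R270H/R270H against flox/flox, no member was called higher and 3 were lower, Nfkb2, Tnfaip3 and Icam1. Of all genes tested, 13.6% were called higher and 11% lower. Tnfaip3 and Icam1 did not reach 4 rpkm in R270H/R270H, so a difference was built into their being tested. Differences were below 0 for 9 of the 10 genes, with Nfkbiz the exception, and their median was -0.46 against 0.03 over all genes. Both R270H/R270H libraries lay under both flox/flox libraries for 8 genes and exceeded them for 1, Nfkbiz, as 31.2% and 36.8% of all genes did. An unadjusted p under 0.05 was found for 6 of the 10 members and for 4269 of all 10042 genes. Leaving out flox/flox replicate 1 gave 7 called lower, with 5318 of all genes called, and leaving out replicate 2 gave 7 lower and 1 higher, Nfkbiz (1.38, adjusted p = 0.00036), with 7259 of all genes called, against 2469 with all libraries. Leaving out any other library gave 1, Icam1. The 3 comparisons share libraries, so their member counts are not independent of each other. The medians over all genes on the 8 chromosomes that hold the members lay between -0.11 and 0.05 in flox/flox and between -0.10 and 0.10 in R270H/R270H, relative to +/+.

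The wider pathway was described with 77 further genes in 8 lists, one of which, Traf5, has 2 entries, so that 54 of 78 entries passed the filter. In flox/flox against +/+, 7 were called higher and 3 lower with a median of -0.13, where 4.38% of all genes were higher, 6.9% lower and the median was -0.02. In R270H/R270H against +/+, 4 were higher and 5 lower with a median of -0.01, where 5.86% of all genes were higher, 6.36% lower and the median was 0.03. In R270H/R270H against flox/flox, 8 were higher and 13 lower with a median of 0.19, where 13.6% of all genes were higher, 11% lower and the median was 0.03. For tested entries under 4 rpkm in both libraries of a genotype, a difference was built into passing, as for some members. All of these counts depended on which libraries entered the fit: they ranged from 0 to 43, 0 to 30 and 0 to 45 in total as each library was left out.

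Of the other IκB genes, those tested also had their highest values in flox/flox. Nfkbib, which encodes IκBβ, stood at 4.79 and 3.84 rpkm in +/+, 12.7 and 11.97 rpkm in flox/flox and 2.41 and 2.74 rpkm in R270H/R270H. Its genotypes did not overlap, and it rose by 1.33 (SE 0.14, adjusted p = 0.0127) in flox/flox against +/+ and was lower by -1.90 (SE 0.14, adjusted p = 0.00289) in R270H/R270H against flox/flox. Bcl3, a nuclear IκB protein that works with p50 and p52 dimers, stood at 7.25 and 5.60, 16.7 and 19.5, and 3.84 and 6.58 rpkm in the same order, with differences of 1.37 (adjusted p = 0.0350) and -1.65 (adjusted p = 0.0149). Nfkbil1, named for its likeness to IκB, was at 4.13 and 3.52, 7.64 and 7.02, and 1.00 and 1.87 rpkm, and was lower in R270H/R270H than in +/+ (-1.01, adjusted p = 0.0423) and than in flox/flox (-1.80, adjusted p = 0.00841). These 3 genes, all those of this list that were tested, were called lower in R270H/R270H against flox/flox, as 11% of all genes were. Nfkbib and Nfkbil1 did not reach 4 rpkm in R270H/R270H, so a difference was built into their being tested. The IκB genes Nfkbia and Nfkbiz described above were not called. Nfkbie and Nfkbid did not reach the filter, and neither did Rel, the gene of c-Rel, at 1.46 to 3.64 rpkm.

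Among the IKK genes, those called in R270H/R270H against flox/flox were higher. Chuk, the gene of IKKα, was at 31.5 and 33.3 rpkm in +/+, 21.7 and 23.3 rpkm in flox/flox and 32.9 and 32.1 rpkm in R270H/R270H, and so lower in flox/flox than in +/+ (-0.51, SE 0.10, adjusted p = 0.0363) and higher in R270H/R270H than in flox/flox (0.51, SE 0.10, adjusted p = 0.0236). Ikbkb, the gene of the main IκB kinase IKKβ, stood at 5.75 and 5.76, 4.50 and 5.29, and 7.09 and 7.15 rpkm, and was higher in R270H/R270H than in flox/flox (0.47, SE 0.12, adjusted p = 0.0476). Tbk1, an IKK-related kinase of innate immune signaling, was higher in R270H/R270H than in +/+ (0.45, SE 0.10, adjusted p = 0.0438) and than in flox/flox (0.40, SE 0.10, adjusted p = 0.0397). Of the 5 listed genes for IKK subunits and IKK-related kinases, 3 were thus called higher in R270H/R270H against flox/flox, as 13.6% of all genes were. Ikbkg, for the scaffold NEMO, (0.52, adjusted p = 0.0720) and Ikbke, for an IKK-related kinase, (0.22, adjusted p = 0.456) were not called.

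In the p100 processing branch 6 of 8 genes were tested. Birc2, the gene of cIAP1 and the paralog of Birc3, was lower in flox/flox than in +/+ (-0.55, adjusted p = 0.0432) and higher in R270H/R270H than in flox/flox (0.46, adjusted p = 0.0426), and Tnfrsf12a, the TWEAK receptor gene, was lower in R270H/R270H than in flox/flox (-0.96, adjusted p = 0.0409). Among 17 tested entries for receptors and adaptors of TNF and interleukin-1, 2 were called higher and 1 lower in flox/flox against +/+, 3 and 2 in R270H/R270H against +/+, and 2 and 3 in R270H/R270H against flox/flox, to be read against the same shares of all genes. Tradd, the adaptor of TNF receptor 1, stood at 4.73 and 4.25 rpkm in +/+, 9.89 and 8.23 rpkm in flox/flox and 2.89 and 3.48 rpkm in R270H/R270H, a difference of 0.87 (adjusted p = 0.0314) between flox/flox and +/+ and of -1.26 (adjusted p = 0.00880) between R270H/R270H and flox/flox. The tested Traf5 entry, for a receptor-associated factor, had the opposite order, at 4.49 and 4.75, 1.61 and 2.43, and 5.74 and 5.07 rpkm (-0.91, adjusted p = 0.0376, and 1.10, adjusted p = 0.0168). Rbck1, the HOIL-1 subunit gene of the linear ubiquitin ligase, was at 30.9 and 30.9, 25.2 and 20.6, and 13.2 and 15.5 rpkm, and was lower in R270H/R270H than in +/+ (-1.06, adjusted p = 0.0151) and than in flox/flox (-0.64, adjusted p = 0.0329). Myd88, the adaptor of Toll-like and interleukin-1 receptors, was higher than in +/+ in flox/flox (0.93, adjusted p = 0.0169) and in R270H/R270H (0.55, adjusted p = 0.0431).

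**Figure D4:**
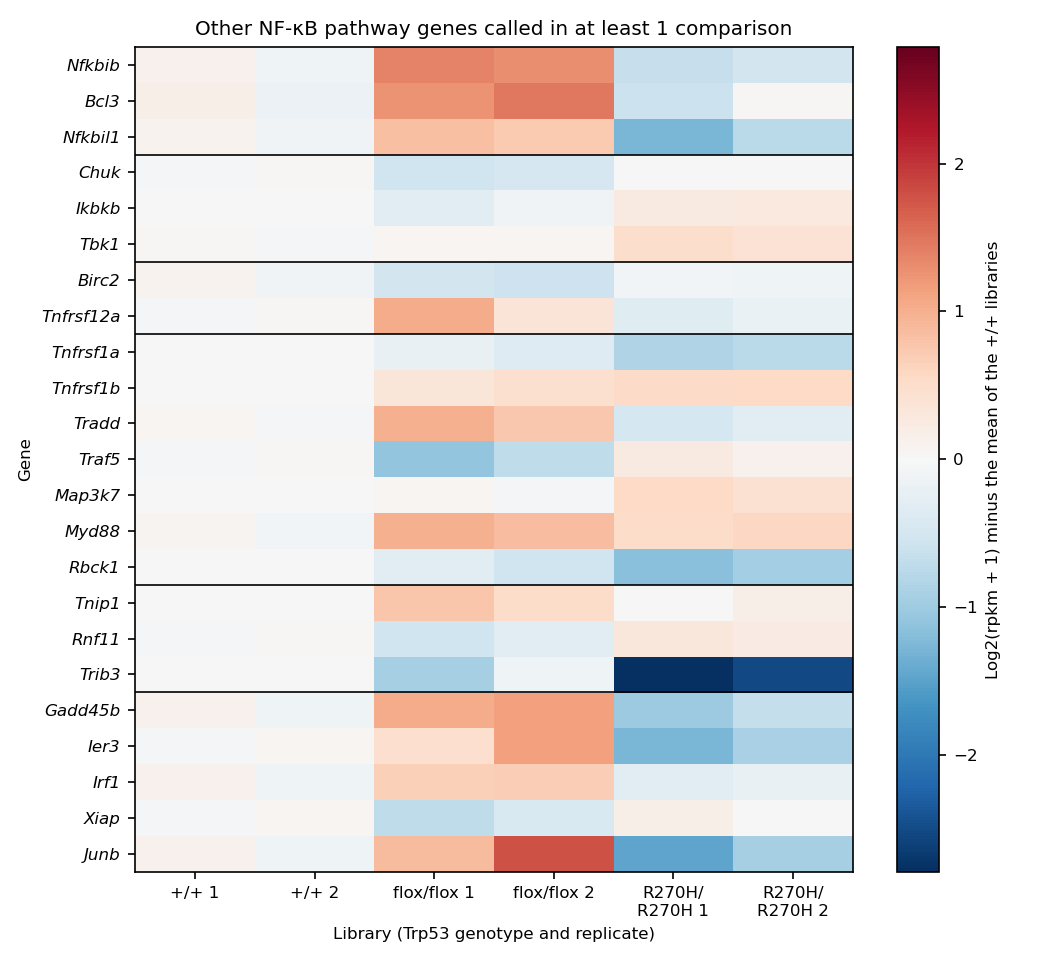
Log2(rpkm + 1) minus the mean of the +/+ libraries (color, red higher and blue lower) for the pathway genes outside the 10 members that were called in at least 1 comparison (y axis), in the 6 libraries (x axis), with black lines between lists. Nfkbib, Bcl3, Tradd and Gadd45b are red in both flox/flox libraries, and Trib3 is the deepest blue in both R270H/R270H libraries.

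Of 10 other feedback genes tested, 1 was called higher in flox/flox against +/+ (4.38% of all genes), 1 lower in R270H/R270H against +/+ (6.36% of all genes), and 1 higher and 2 lower in R270H/R270H against flox/flox (13.6% and 11% of all genes). Tnip1, whose product works with A20, was higher in flox/flox than in +/+ (0.64, adjusted p = 0.0397) and lower in R270H/R270H than in flox/flox (-0.56, adjusted p = 0.0345), the same signs as Tnfaip3. Rnf11, a partner of A20, was higher in R270H/R270H than in flox/flox (0.69, adjusted p = 0.0213). Trib3, a pseudokinase that is also induced by stress of the endoplasmic reticulum, fell from 24.6 and 24.2 rpkm in +/+, with 12.4 and 22.5 rpkm in flox/flox, to 2.68 and 3.44 rpkm in R270H/R270H (-2.65 against +/+, adjusted p = 0.00814).

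Of 20 other target genes, 9 were tested, and those at the floor in all 6 libraries included Il6, Il1b, Csf2, Vcam1, Sele, Nos2 and Traf1. Gadd45b, a stress response gene that p53 can also regulate, was called in all 3 comparisons: it stood at 10.2 and 8.45 rpkm in +/+, 20.1 and 21.7 rpkm in flox/flox and 4.09 and 5.51 rpkm in R270H/R270H, with differences of 1.09 (adjusted p = 0.0263), -0.84 (adjusted p = 0.0383) and -1.93 (adjusted p = 0.00429) in the order of the comparisons above. Irf1, an interferon regulatory factor gene, was higher in flox/flox than in +/+ (0.68, adjusted p = 0.0344) and lower in R270H/R270H than in flox/flox (-0.93, adjusted p = 0.0111). Junb (-2.53, adjusted p = 0.0117) and Ier3 (-1.90, adjusted p = 0.0112), both immediate early genes, were lower in R270H/R270H than in flox/flox, and Xiap, an inhibitor of caspases, was higher (0.65, adjusted p = 0.0278). The list thus held 4 genes called lower and 1 higher in that comparison, against 11% and 13.6% of all genes.

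The receptor side of Lif was measured too. Lifr, the gene of the receptor chain that binds Lif, lay between the floor and 1.26 rpkm in all 6 libraries and was not tested. None of the 4 genes tested in this list, Il6st, Jak1, Stat3 and Socs3, was called in any comparison, and 0 had an unadjusted p under 0.05. Socs3, a target of STAT3 and its feedback inhibitor, stood at 5.40 and 5.29 rpkm in +/+, 1.04 and 4.87 rpkm in flox/flox and 4.79 and 5.85 rpkm in R270H/R270H. It was low in 1 flox/flox library only, replicate 1. Nfkb1, Nfkb2, Nfkbia, Nfkbiz, Tnfaip3, Birc3 and Lif were also lower there than in replicate 2, as were Il6st, Jak1 and Stat3. Rela, Relb and Icam1 were higher there.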

How the data were processed

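Stranded poly(A) libraries of 6 organoid preparations, 2 for each of 3 Trp53 genotypes, were run on a HiSeq. Alignment to mm10 and the rpkm calculation were done by the authors in StrandNGS, and the deposited rpkm values, with replicates kept apart, were the starting point. Its version, annotation, read filters and strand setting are not given in the sources used here. The floor of 1 rpkm is inferred from the values. Sums of rpkm ran from 377845 to 484930 per library. The table holds no counts, and steps of 1 read could not be settled from short RNA genes, so the depth is unknown and no counting interval is given.

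In R 4.3.3, limma 3.58.1 (lmFit, then eBayes with trend=TRUE) was fitted to log2(rpkm + 1) of the 10042 genes that reached 4 rpkm in 1 library or more, on all 6 libraries without a block, two-sided, with Benjamini-Hochberg adjustment over these genes at 0.05. Changes of low genes are understated by the pseudocount of 1. Counts and figures were made in Python 3.11.15 with pandas 2.3.3, numpy 2.4.6 and matplotlib 3.10.9. The code was tested on simulated data.

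Coordinates are from GENCODE M21, and promoter windows from RefSeq GRCm38.p6. All 124 symbols of the lists were found, 2 of them under an older symbol by Entrez ID. The genes named are the 10 members, Trp53, listed Rel, IκB and IKK genes, and in each list up to 4 called genes with the largest log2 fold change. Xiap, the cell type markers named singly, Lifr and the members of the Lif receptor list were named after their values were seen. The members, lists and tests were chosen with earlier results of these data known, so the pattern of no list is independent evidence. Alternatives were pseudocounts of 0.1 and none, 3 filters, 2 scalings, no trend, genotype weights, fits of 2 genotypes, blocks on the replicate number and each library left out.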

Additional observations from a re-analysis of the deposited data

How the results depend on the processing

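The values of the 10 genes were recomputed under 18 alternatives, which gave 454 results with the same direction and call, 45 that came to be called, 34 that ceased to be and 4 that changed sign. Icam1 was called lower in R270H/R270H than in flox/flox under all 18, whereas in that comparison Nfkb2 was not called under 8 and Tnfaip3 under 11. The sign changes were those of Nfkbia in R270H/R270H against +/+ (-0.12 to 0.17 as libraries were left out), Relb (-0.24 to 0.36) and Nfkbiz (-0.23 to 1.06) in flox/flox against +/+ and Birc3 in R270H/R270H against flox/flox (-0.32 to 0.16).

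Below, results are given for R270H/R270H against +/+, then flox/flox against +/+, then R270H/R270H against flox/flox. With the 2 genotypes compared only, 2 members were called higher and 4 lower, 30 pathway genes and 5721 genes in all in the first comparison, 0 members higher, 0 pathway genes and 47 genes in the second, and 1 member lower, 3 pathway genes and 378 genes in the third. With genotype weights these were 2 higher, 5 lower, 32 and 5987, then 0, 0 and 150, then 1, 5 and 534. Without a filter, 0 members were lower, 0 pathway genes and 424 genes were called, then 0 pathway genes and 73 genes, then 1 member lower, 4 pathway genes and 756 genes. A filter of over 1 rpkm gave 1907 genes in the first comparison and 2 members higher in the second, as median-of-ratios scaling did for the latter. The stricter filter removed Lif and left 0 members lower in the first comparison, as did a pseudocount of 0.1 and none (adjusted p of Lif 0.0528 and 0.0537).

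As each library was left out, the first comparison gave 0 to 2 members higher, 0 to 4 lower, 0 to 30 pathway genes and 0 to 5732 genes, the second 0 to 7 higher, 0 to 1 lower, 0 to 43 and 8 to 6875, and the third 0 to 1 higher, 1 to 7 lower, 0 to 45 and 166 to 7259, where the highest counts came without a flox/flox library. A lone library is then assumed to vary like the others.

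The replicate numbers do not show that libraries were paired: deviations of same-numbered libraries correlated at 0.117, -0.291 and -0.196 (+/+ with flox/flox, +/+ with R270H/R270H, flox/flox with R270H/R270H). A replicate block left 0 members lower, 4 pathway genes and 550 genes in the first comparison (Lif adjusted p 0.0678), 2 pathway genes and 280 genes in the second, and 1 member lower, 10 pathway genes and 1156 genes in the third, where Nfkb2 (adjusted p 0.0553) and Tnfaip3 (0.0738) were no longer called. With the R270H/R270H numbers exchanged, a choice made after seeing the data, 0 members were lower and 5 pathway genes called in the first comparison. The cause of these changes was not tested, and depth, which is unknown, limits what can be said of genes near the floor.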
